A study of Homo sapiens with 6 samples.

Results

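The genes described here are 34 genes of the autophagy machinery, chosen by name from a list ordered by what their products do. All 34 were found among the 32917 genes of the deposited expression table, and they carried 74 of 42618 listed m6A peaks and 50 of the 19979 peaks that the authors compared between treatments. Kasumi-1 is an established human acute myeloid leukaemia line with the RUNX1-RUNX1T1 fusion, labelled wild type in genotype. The analysed group was exposed for 24 hours to 100 uM CoCl2, which mimics hypoxia by stabilising HIF-1 alpha, together with 10 nM echinomycin, which blocks binding of HIF-1 to DNA. It comprised 3 IP libraries, pulled down with an antibody against N6-methyladenosine (m6A), and 3 input libraries, numbered 1 to 3. The labels do not say whether these came from separate cultures, so the spread between them may be technical. The group it was set against by the authors received CoCl2 without echinomycin, and its libraries were not analysed here. All values come from 1 cell line at 1 time, and CoCl2 is shared by both sides of the authors' comparison.

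Autophagy encloses parts of the cytoplasm in a double membrane, the autophagosome, and delivers them to the lysosome. The ULK kinase complex starts the process, a lipid kinase complex built around PIK3C3 marks the membrane with phosphatidylinositol 3-phosphate, WIPI and ATG2 proteins bind and feed the membrane, and ATG9A supplies seed vesicles. The enzyme ATG10 joins ATG12 to ATG5. The enzymes ATG7 and ATG3 and the ATG12-ATG5-ATG16L1 complex then attach ATG8 proteins to lipid. ATG4 proteases process the ATG8 proteins, and cargo receptors such as the product of SQSTM1 (p62) tie cargo to them. Hypoxia is a known inducer of autophagy, and m6A is a mark on messenger RNA that reader proteins bind and that influences stability and translation.

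The m6A mark is set preferentially at short motifs around the letters GGAC, so the starts of these genes were searched for those letters on the gene's strand. RefSeq start windows (build GRCh38.p14, 250 bases before to 50 after a start) matched 31 of the 34 genes, and 28 of their 40 windows (70.0%) held GGAC, against 66.3% of all 35116 windows. Most of each window lies before the start and need not be transcribed, so these shares do not describe m6A sites in the RNA. In 5 genes such a site lay inside the blocks of a listed 5' UTR peak of that gene, downstream of the gene's first annotated base. The share of all genes with such a site was not computed, so this count has no reference. These 5 sites are printed with GGAC in capitals and 10 bases on each side, 5′ to 3′ on the gene's strand.
OPTN: gaccccgcacGGACagcgagggtg
ATG4B: gtgtcccgtcGGACagcagaacca
ATG5: cgtccccgcaGGACagtgtgtcag
ATG10: cggccgtggcGGACctgactgaag
ATG2A: cagcggagccGGACggggatcgcc
The OPTN site is at chr10:13099938-13099961 (plus strand), the ATG4B site at chr2:241637461-241637484 (plus), the ATG5 site at chr6:106325621-106325644 (minus), the ATG10 site at chr5:81972043-81972066 (plus) and the ATG2A site at chr11:64917180-64917203 (minus). The ATG5 peak, with a fold enrichment of 1.57, missed the authors' FDR of 0.05 (log10 FDR -1.0), and the other 4 peaks passed it. After GGAC comes A in OPTN, ATG4B and ATG5, C in ATG10 and G in ATG2A. The letters were matched by position, all 34 genes overlapped the GRCh38.p14 position of the same symbol, and a match does not show that the site is methylated. Sequences of peaks further inside the genes were not used here.

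As a check of the label, 9 of 10 genes expected in this line reached a mean of 1 FPKM (fragments per kilobase of transcript, scaled to library size) and the 10 summed to 185 to 203 FPKM per library. MPO was highest at 56.2 ± 2.74 FPKM (SD, n = 3) and RUNX1T1 at 4.21 ± 0.25 FPKM (SD, n = 3). Of 5 T cell markers, which summed to 30.9 to 35.3 FPKM, CD3D stood at 32.1 ± 2.3 FPKM (SD, n = 3) while CD3G and CD5 were listed at 0. Of 5 epithelial and stromal markers in the table, which summed to 10.3 to 11.4 FPKM, only EPCAM passed 1 FPKM. Whether these values come from the line itself or from other cells was not tested. B cell markers summed to 9.16 to 10.4 FPKM per library with 3 of 5 genes at 1 FPKM or more, and the 2 erythroid markers in the table to 0.504 to 0.569 FPKM. The 3 input libraries correlated at Pearson's r of 0.986 to 0.988 across the 12612 genes with a mean of 1 FPKM or more, on the scale log2(FPKM + 1), and genes are not independent replicates. Depth per library is unknown, because FPKM values do not give it.

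Most autophagy transcripts were present, with SQSTM1 and GABARAP at the top of the order and ULK2 and ATG10 at its end. SQSTM1, whose product carries ubiquitinated cargo to the autophagosome, had 59.9, 59.4 and 61.9 FPKM in the 3 input libraries, rank 393 among all genes of the table. GABARAP, an ATG8 family gene, followed at 29.4, 34.9 and 31.8 FPKM. At the other end lay ULK2, a paralogue of the initiating kinase ULK1, at 0.14, 0.149 and 0.126 FPKM, and ATG10, the enzyme that joins ATG12 to ATG5, at 0.263, 0.332 and 0.391 FPKM. The other 32 genes had a mean of 1 FPKM or more and are called expressed below. In RNA from bulk cells, fewer cells with a transcript and less of it per cell cannot be told apart. The median of the 34 means was 7.90 FPKM. Over the 32 expressed autophagy genes it was 8.26 FPKM, against 5.36 FPKM for all 12612 expressed genes. The median coefficient of variation between the libraries was 3.69% in the expressed autophagy genes, against 6.06% in all expressed genes.

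Within the initiation complex, ULK1 had 8.64, 8.42 and 8.44 FPKM, below its partners. ATG13, its regulatory subunit, had 15.9, 15.8 and 16.4 FPKM, overlapping the scaffold RB1CC1 (15.9 ± 0.159 FPKM), and ATG101 had 15.2 ± 0.775 FPKM (SD, n = 3 each). In the lipid kinase complex the scaffold BECN1 stood at 22.4, 22.9 and 21.6 FPKM, and the catalytic subunit PIK3C3 at 3.88, 3.54 and 3.62 FPKM. Between them lay ATG14, the subunit that directs the complex to autophagy, at 14.4 ± 0.712 FPKM and PIK3R4, its regulatory subunit, at 13.9 ± 0.237 FPKM (SD, n = 3 each). Lower in the order came AMBRA1, a regulator of BECN1, at 7.77 ± 0.0966 FPKM and UVRAG, a subunit of an alternative complex, at 3.94 ± 0.157 FPKM (SD, n = 3 each). PIK3C3 had the lowest mean of the 6 genes, and among the 6 its range overlapped only that of UVRAG, which reached down to 3.76 FPKM.

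Paralogues differed in level. WIPI2 stood at 18.6 ± 0.493 FPKM and WIPI1 at 2.75 ± 0.137 FPKM, and ATG2A at 12.5 ± 0.514 FPKM and ATG2B at 3.81 ± 0.321 FPKM (SD, n = 3 each), in both pairs without overlap between the libraries. Among the ATG4 proteases the order was ATG4D (12.5 ± 0.387 FPKM), ATG4B (6.13 ± 0.175 FPKM), ATG4A (5.00 ± 0.406 FPKM) and ATG4C (1.98 ± 0.249 FPKM; SD, n = 3 each), again without overlap between neighbours. Of the ATG8 family, MAP1LC3B (LC3B) at 23.1 ± 0.34 FPKM and GABARAPL2 at 21.8 ± 1.29 FPKM overlapped in range, while GABARAPL1 was lower at 6.28 ± 0.49 FPKM (SD, n = 3 each). MAP1LC3B has a near-identical copy, MAP1LC3B2, listed at 1.17 ± 0.32 FPKM (SD, n = 3), with which it can share reads. In the conjugation machinery ATG12 (8.03 ± 0.103 FPKM), ATG3 (7.53 ± 0.196 FPKM), ATG16L1 (5.32 ± 0.18 FPKM) and ATG5 (4.34 ± 0.0852 FPKM) lay above ATG7, the activating enzyme, at 1.55 ± 0.0885 FPKM (SD, n = 3 each). ATG9A stood at 14.1 ± 0.895 FPKM, the receptors NBR1 at 15.4 ± 0.106 FPKM and OPTN at 5.63 ± 0.244 FPKM, and TFEB, a transcription factor of lysosome and autophagy genes, at 2.22 ± 0.116 FPKM (SD, n = 3 each). Over the whole order, 18 of 33 neighbouring pairs did not overlap between libraries and 15 did.

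**Figure D1:**
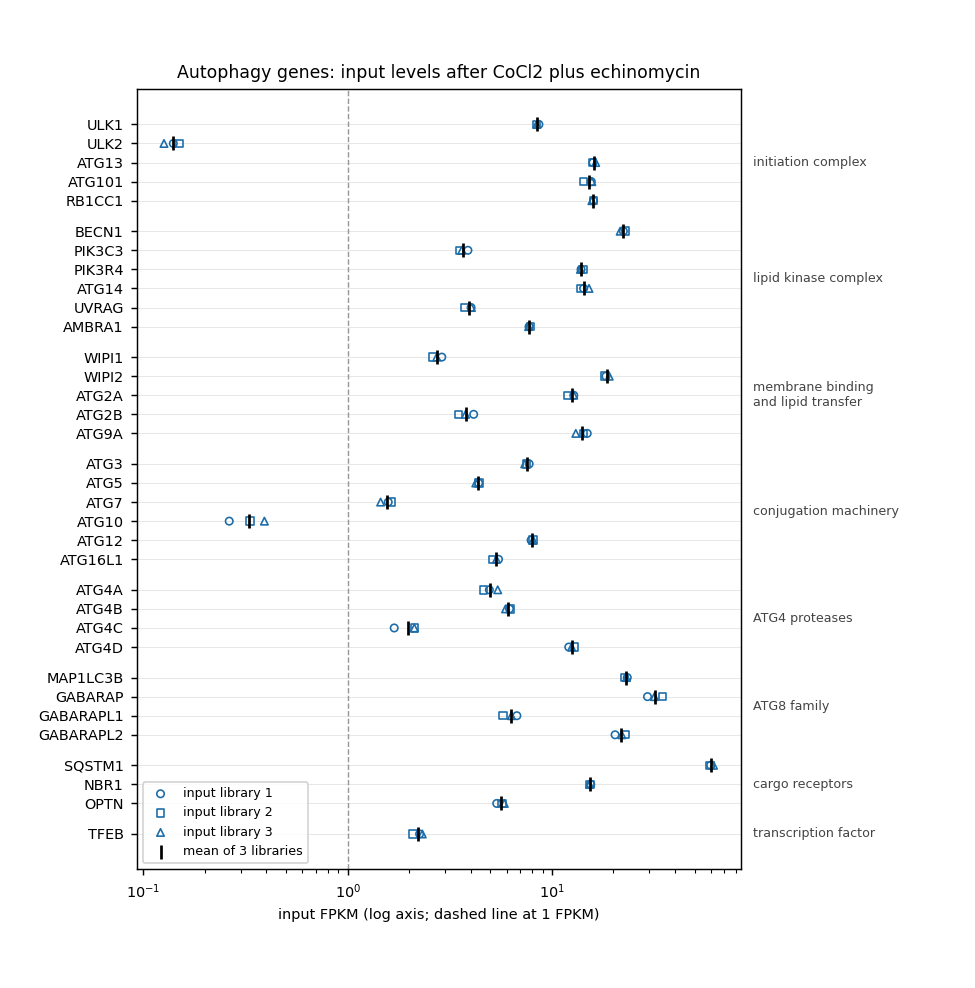
Input level of the 34 autophagy genes after CoCl2 plus echinomycin, in FPKM on a log axis, grouped by role. Open symbols are the 3 input libraries and the vertical bar is their mean. SQSTM1 lies highest at 60.4 FPKM, and ULK2 and ATG10 are the genes left of the dashed line at 1 FPKM.

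Most autophagy transcripts carried m6A peaks after the combined treatment. A listed peak was present in 27 of 32 expressed genes (84.4%), close to the 79.7% of all expressed genes with one, and also in ULK2 and ATG10. The 5 genes without a listed peak were BECN1, PIK3C3, WIPI1, ATG4D and GABARAP, of which BECN1 and GABARAP are among the 4 highest of the 34 in level. Genes with a peak, ULK2 and ATG10 included, had a median of 3 peaks and at most 5, in WIPI2 and SQSTM1. All expressed genes with a peak had a median of 2. Fold enrichment, the authors' own ratio of IP over input for each peak with no error given, had a median of 3.23 over the 74 peaks and of 4.53 over all listed peaks. Of the 74 peaks, 70 passed an authors' FDR of 0.05.

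Of the 74 peaks 35 (47.3%) were labelled 3' UTR, against 42.5% of all listed peaks. The label 5' UTR was given to 26 (35.1%), against 23.1% of all, and exon to 13 (17.6%), against 34.4% of all. The label is the authors' and marks 1 feature of a peak that can span several exons, as 32 of the 74 peaks did. Of the 3' UTR peaks, 8 (22.9%) ended at the annotated end of their gene, against 14.6% of all listed 3' UTR peaks. Among these were the 3' UTR peaks of ATG2A (64894546 to 64895373 on chromosome 11, enriched 12.5-fold), WIPI2 (5233062 to 5233840 on chromosome 7, 8.66-fold) and AMBRA1 (46396414 to 46397853 on chromosome 11, 7.20-fold). Coordinates of peaks are those of the tables, whose build is not named.

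The highest fold enrichment of the group was in TFEB, at 24.2 in a 5' UTR peak of 359 exonic bases on chromosome 6 at 41735015 to 41736199 (log10 FDR -5.49), while its 3' UTR peak had 3.65. ULK2 followed at 17.7, but at 0.139 FPKM, and ATG10 had a 5' UTR peak of 11.2 at 0.329 FPKM, the peak that holds the ATG10 sequence above. Among genes above 10 FPKM, ATG2A stood first at 12.5, WIPI2 had 8.66 and 7.47 in separate 3' UTR peaks, and RB1CC1 7.01 in its 5' UTR on chromosome 8 at 52714132 to 52745723. ATG2B, at 10.5 in the 3' UTR, ATG7, at 9.31 in the 5' UTR, and ATG4A, at 8.20 in the 3' UTR, were the other genes with a peak above 8. The paralogues ATG2A and ATG2B both had their strongest peak in the 3' UTR. At the low end ATG3 had a single peak of 1.35, and the ATG8 genes were modest apart from GABARAPL1 (5.89), with 2.79 as the highest value of MAP1LC3B, in a peak that missed the FDR of 0.05 (log10 FDR -1.18), and 2.14 in GABARAPL2.

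Several peaks cannot be assigned to the autophagy gene alone, since their blocks also overlapped the span of another expressed gene (11 of 74) and the tables give no strand for a peak. The share of all listed peaks that do so was not computed. Among the peaks compared between treatments, 42 of 50 overlapped no other expressed gene, against 16054 of all 19979. The ATG10 peak on chromosome 5 at 82273977 to 82274216 lies within RPS23, a ribosomal protein gene of the opposite strand at 364 ± 7.42 FPKM (SD, n = 3), while ATG10 itself stood at 0.329 FPKM. The AMBRA1 peak on chromosome 11 at 46428653 to 46428916 carries the exon label of AC024293, a pseudogene of the ribosomal protein gene RPS10 listed at 170 ± 0.873 FPKM (SD, n = 3). The 2 overlapping ATG9A peaks near 219220103 on chromosome 2 also lie in AC068946 of the same strand (3.59 ± 0.489 FPKM), and the 2 ATG13 5' UTR peaks overlap HARBI1 (3.51 ± 0.162 FPKM; SD, n = 3 each). In the same way 3 SQSTM1 peaks overlap MGAT4B (46.3 ± 0.495 FPKM), 1 ATG12 peak overlaps AP3S1 (4.39 ± 0.443 FPKM) and the NBR1 5' UTR peak overlaps AC060780 (4.82 ± 0.184 FPKM; SD, n = 3 each). Without such peaks ATG10, ATG12, ATG13, AMBRA1, ATG9A, SQSTM1 and NBR1 each kept at least 1 listed peak.

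**Figure D2:**
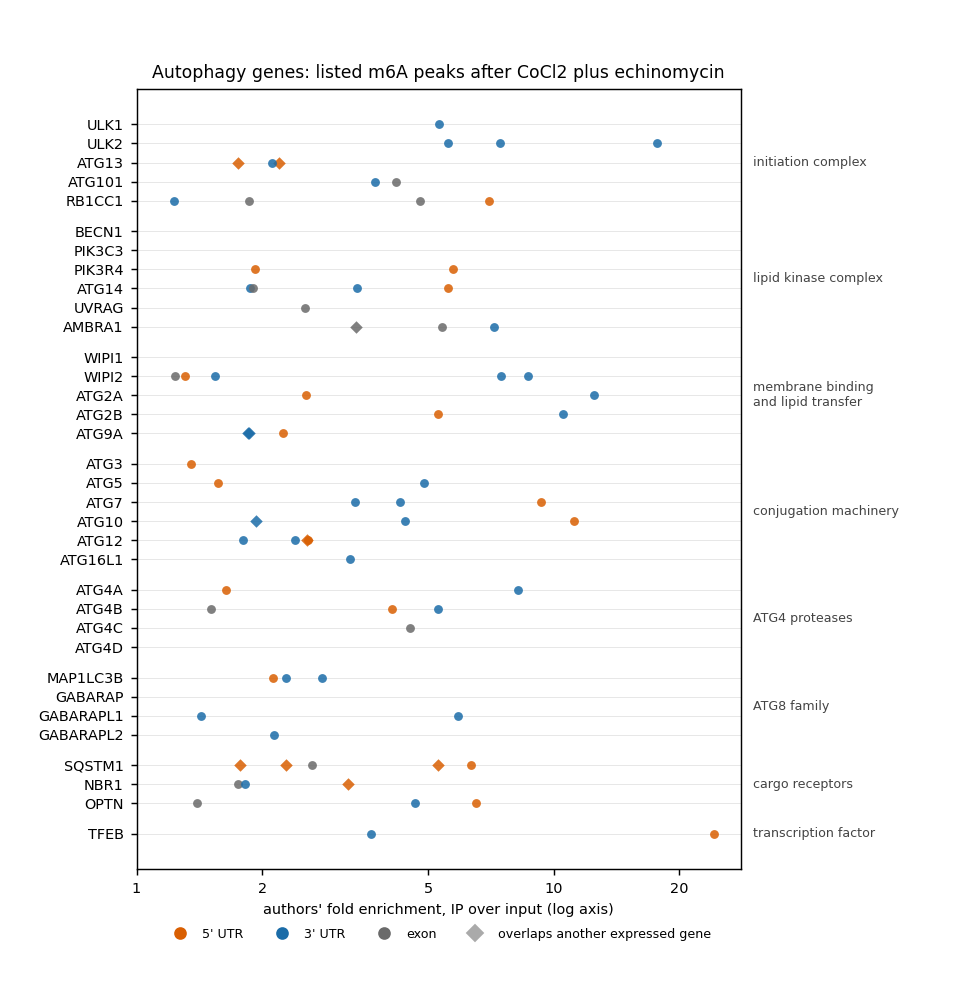
The authors' fold enrichment (IP over input, log axis) of the 74 listed peaks of the autophagy genes after CoCl2 plus echinomycin, coloured by region label. Diamonds are peaks that also overlap another expressed gene. The 5' UTR peak of TFEB lies highest at 24.2, and 5 genes have no point because no peak was listed.

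The authors' comparison of the combined treatment with CoCl2 addresses what echinomycin adds to the hypoxia mimic. It gives 1 log2 fold change of m6A enrichment per peak and no replicate values, so "higher" and "lower" below mean an authors' FDR under 0.05, with no check across replicates, and concern enrichment, not RNA level. A tested peak was present for 24 of the 34 genes in the authors' deposited table, and 39 of their 50 peaks (78.0%) passed the FDR, against 68.9% of all tested peaks. Of the 50, the authors' deposited table had 18 (36.0%) higher and 21 (42.0%) lower, against 23.1% and 45.8% of all tested peaks. Of the 42 peaks that overlap no other expressed gene, 10 (23.8%) were higher and 21 (50.0%) lower in the authors' deposited table, against 23.3% and 44.0% of all such peaks, so the larger share of higher peaks was not seen without the shared ones. The 42 include a lower WIPI1 peak that carries an exon label of another gene. At a change of 2-fold or more, 8 peaks were higher and 6 lower in the authors' deposited table, together 28.0% of the 50 against 17.2% of all peaks. The share of all peaks at this limit was computed for both directions together only. Among the 8 higher peaks, that of AMBRA1 at 1.03 and that of SQSTM1 at 1.21 are shared with another expressed gene. The genes without a tested peak were BECN1, PIK3C3, UVRAG, ATG3, ATG16L1, ATG4C, ATG4D, GABARAP, GABARAPL1 and GABARAPL2.

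The cargo receptors had 5 higher peaks and none lower of 6 in the authors' deposited table, against 23.1% higher and 45.8% lower over all tested peaks. The membrane binding and lipid transfer genes had 6 lower peaks, in WIPI1, WIPI2, ATG2A and ATG2B, and 2 higher ones, both in ATG9A, of 10 in the authors' deposited table. Of those 6 lower peaks 5 were labelled 3' UTR, a label under which 53.7% of all tested peaks were lower and 22.9% higher in the authors' deposited table. For SQSTM1 the authors' deposited table gave 1.95 in the 5' UTR on chromosome 5 at 179811681 to 179813003 (log10 FDR -15.5), a peak that overlaps no other expressed gene. Its second tested peak in the authors' deposited table, at 1.21 (log10 FDR -5.74), reaches into MGAT4B. OPTN, a receptor in the removal of mitochondria and bacteria, had both tested peaks higher in the authors' deposited table, at 1.25 in the 5' UTR (log10 FDR -3.51), in a peak that holds the OPTN site shown above, and at 1.37 in the 3' UTR (log10 FDR -2.26). The NBR1 5' UTR peak was at 0.87 in the authors' deposited table (log10 FDR -9.91), over a stretch shared with AC060780, and its exon peak at -0.14 missed the FDR of 0.05 (log10 FDR -1.29). Of the 5 higher receptor peaks in the authors' deposited table, 3 lie on stretches free of another expressed gene, all in SQSTM1 or OPTN. Without shared peaks 3 of 4 receptor peaks were higher in the authors' deposited table, against 23.3% of all such peaks. Apart from the OPTN peak at 1.37, the higher ones were labelled 5' UTR. Under that label 28.1% of all tested peaks were higher and 43.3% lower in the authors' deposited table.

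WIPI2, which binds phosphatidylinositol 3-phosphate and recruits ATG16L1, had 3 of 4 tested peaks lower in the authors' deposited table, all in the 3' UTR. They stood at -1.61 on chromosome 7 at 5232283 to 5232822 (log10 FDR -73.8), at -1.27 (log10 FDR -72.3) and at -0.56 (log10 FDR -47.5) in the authors' deposited table. ATG2A, which transfers lipid to the growing membrane, stood at -1.01 (3' UTR, log10 FDR -32.9) in the authors' deposited table and its paralogue ATG2B at -0.37 (3' UTR, log10 FDR -3.60). WIPI1 had 1 lower peak, at -1.26 in the authors' deposited table (log10 FDR -1.65), which carries an exon label of another gene, and 1 at -1.08 that missed the FDR of 0.05 (log10 FDR -1.02). ATG9A differed from these genes, with its 2 overlapping peaks at 0.90 and 0.85 in the authors' deposited table (log10 FDR -11.0 and -10.3), in the stretch shared with AC068946.

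**Figure D3:**
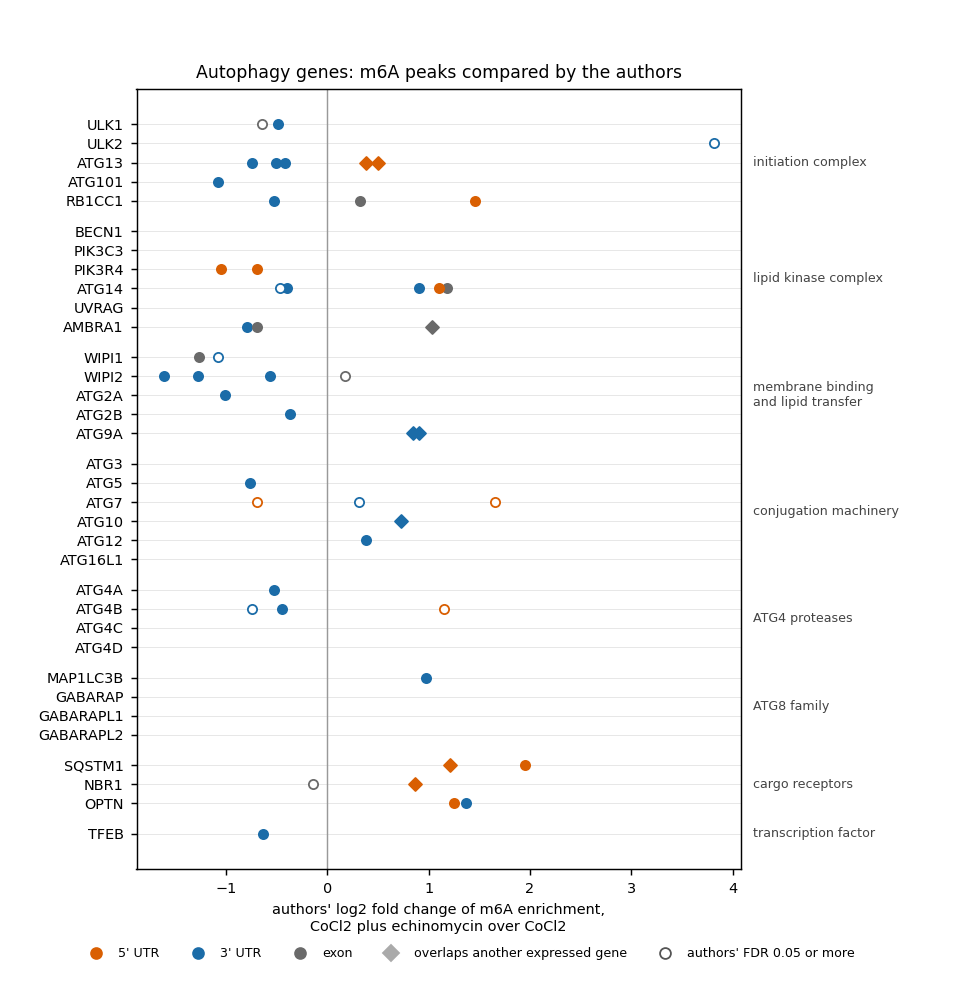
The authors' log2 fold change of m6A enrichment, CoCl2 plus echinomycin over CoCl2, for the 50 tested peaks of the autophagy genes, coloured by region label. Filled symbols passed the authors' FDR of 0.05, open ones did not, and diamonds also overlap another expressed gene. SQSTM1 lies highest among filled symbols at 1.95 and WIPI2 lowest at -1.61.

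In the initiation complex 4 peaks were higher, in 5' UTRs or an inner exon, and 6 lower, all labelled 3' UTR, of 12 in the authors' deposited table, against 23.1% higher and 45.8% lower of all tested peaks. Without the 2 overlapping ATG13 peaks shared with HARBI1, 2 of 10 were higher, both in RB1CC1, in the authors' deposited table. ATG101, a partner of ATG13, was at -1.08 in the authors' deposited table (3' UTR, chromosome 12 at 52076896 to 52077494, log10 FDR -62.0), and ULK1 at -0.48 (3' UTR, log10 FDR -9.34). ATG13 had 3 lower 3' UTR peaks in the authors' deposited table, at -0.74, -0.51 and -0.42, and 2 higher overlapping 5' UTR peaks, at 0.50 and 0.38, in the stretch shared with HARBI1. RB1CC1 was at 1.46 in its 5' UTR (log10 FDR -7.07), at 0.32 in an inner exon and at -0.52 in a large peak of 2009 exonic bases (log10 FDR -47.0) in the authors' deposited table. That large peak is labelled 3' UTR in the comparison and exon in the peak list, the 1 such difference among 42 tested peaks that overlap a listed peak of the same gene. ULK2 showed the largest value, 3.81 in the authors' deposited table, but missed the FDR of 0.05 (log10 FDR -0.52) at 0.139 FPKM.

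In the lipid kinase complex ATG14 and PIK3R4 went opposite ways at their 5' ends. ATG14 was higher in the authors' deposited table in a 5' UTR peak at 1.10 (chromosome 14 at 55391278 to 55411830, log10 FDR -6.13), in an exon peak at 1.18 (log10 FDR -13.7) and in a 3' UTR peak at 0.90 (log10 FDR -21.3), and lower at the far end of its 3' UTR at -0.40 (log10 FDR -1.65). PIK3R4 had both tested peaks lower in the authors' deposited table, both labelled 5' UTR, at -1.05 (chromosome 3 at 130733584 to 130746411, log10 FDR -61.0) and -0.69 (log10 FDR -3.03). AMBRA1 was lower in its 3' UTR at -0.79 (log10 FDR -47.8) and in an exon peak at -0.69 (log10 FDR -23.0) in the authors' deposited table. Its remaining tested peak, at 1.03 in the authors' deposited table (log10 FDR -105), is the one labelled with the RPS10 pseudogene.

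The conjugation, protease and ATG8 genes had few tested peaks. ATG5 was at -0.76 in the authors' deposited table (3' UTR, log10 FDR -26.9), ATG12 at 0.38 (3' UTR, log10 FDR -2.64), and ATG10 at 0.72 (log10 FDR -5.13), the last within RPS23. The 3 tested peaks of ATG7 missed the FDR of 0.05 in the authors' deposited table, at 1.65, 0.32 and -0.70. The proteases ATG4A, at -0.52 (3' UTR, log10 FDR -6.90), and ATG4B, at -0.45 (3' UTR, log10 FDR -5.07), were lower in the authors' deposited table, and a 5' UTR peak of ATG4B at 1.15 missed the FDR of 0.05 (log10 FDR -0.375). MAP1LC3B, the only ATG8 gene with a tested peak, was higher at 0.98 in the authors' deposited table, in 121 bases at the end of its 3' UTR on chromosome 16 at 87404659 to 87404779 (log10 FDR -4.41). TFEB was at -0.63 in the authors' deposited table in its 3' UTR peak of 987 bases (log10 FDR -5.71), while its 5' UTR peak of highest enrichment was not among the tested peaks.

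Among the autophagy genes, higher peaks made up a larger share of 5' UTR peaks than of 3' UTR peaks. Of 13 tested 5' UTR peaks in 9 of the genes, 8 were higher and 2 lower in the authors' deposited table (61.5% and 15.4%), against 28.1% higher and 43.3% lower of all 5' UTR peaks. Of 29 tested 3' UTR peaks, 7 were higher and 17 lower in the authors' deposited table (24.1% and 58.6%), against 22.9% and 53.7% of all 3' UTR peaks. In the exon label 3 of 8 peaks were higher and 2 lower in the authors' deposited table, against 19.0% and 34.3% of all exon peaks. The median log2 fold change was 1.10 in 5' UTR and -0.48 in 3' UTR peaks of the autophagy genes, against -0.35 and -0.45 over all peaks of those labels in the authors' deposited table. Leaving out peaks shared with another expressed gene, 4 of 9 5' UTR peaks (44.4%) were higher (RB1CC1, ATG14, SQSTM1 and OPTN) and 2 (22.2%) lower (both PIK3R4) in the authors' deposited table, against 28.9% and 41.0% of all such 5' UTR peaks. Of 26 such 3' UTR peaks 4 (15.4%) were higher and 17 (65.4%) lower in the authors' deposited table, against 23.4% and 52.0% of all. Since peaks of a gene share its transcripts and the numbers are small, these shares are a description, and the difference from the whole table was not tested.

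**Figure D4:**
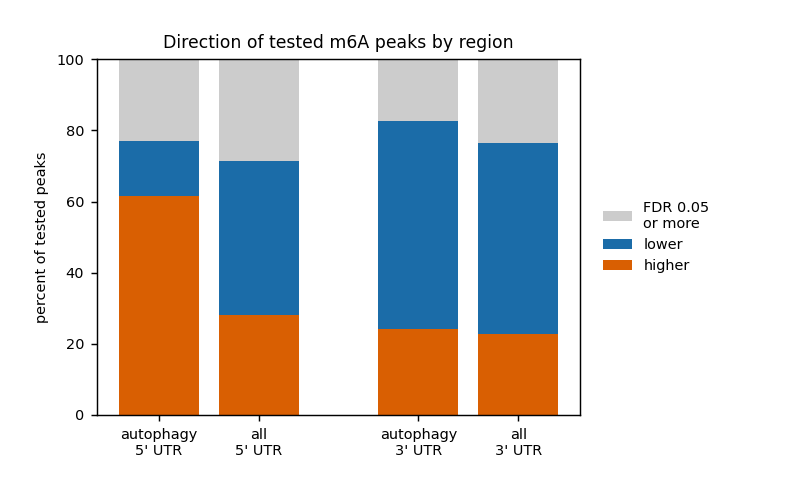
Percent of tested peaks that were higher, lower or at an authors' FDR of 0.05 or more for CoCl2 plus echinomycin over CoCl2, in 5' UTR and 3' UTR peaks of the autophagy genes (13 and 29 peaks) and of all genes. Higher peaks make up 61.5% of the autophagy 5' UTR peaks and 28.1% of all 5' UTR peaks, and 24.1% and 22.9% in the 3' UTR.

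Both kinds of UTR peak were tested in 6 of the genes, and in 5 of them (RB1CC1, ATG4B, ATG14, ATG13 and ATG7) the mean log2 fold change of the authors' deposited table was greater in the 5' UTR than in the 3' UTR. The difference was 1.98 for RB1CC1, 1.74 for ATG4B, 1.09 for ATG14, 0.99 for ATG13 and 0.16 for ATG7. It was -0.12 for OPTN, where the peaks of both labels were higher in the authors' deposited table. The OPTN peak labelled 3' UTR lies at 13110312 to 13110372 on chromosome 10, inside a gene annotated to end at 13138308. Over all 1919 genes with both kinds tested, the 5' UTR mean was the greater in 56.9%, with a median difference of 0.13 in the authors' deposited table. The 5' UTR peaks of ATG4B and ATG7 did not pass the authors' FDR, and those of ATG13 overlap HARBI1. For RB1CC1 the only 3' UTR value is that of the large peak labelled exon in the peak list. This peak lies at 52645756 to 52657904 on chromosome 8, while the annotated 3' end of the gene is at 52622458.

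Taking for each gene its peak of lowest authors' p, 9 of the 24 genes were higher, 13 lower and 2 not past the FDR (ULK2 and ATG7) in the authors' deposited table, against 22.6% higher and 52.7% lower over all 11315 genes with a tested peak. For 4 of the 9 (AMBRA1, ATG9A, ATG10 and NBR1) the higher peak is shared with another expressed gene. Without shared peaks, 5 of 22 genes (22.7%) were higher and 14 (63.6%) lower in the authors' deposited table, against 22.9% and 50.4% of all genes, with AMBRA1 among the lower ones at -0.79. The median was -0.41 for the autophagy genes and -0.50 for all genes of the authors' deposited table. Choosing for each gene the peak with the greatest change in either direction gave a median of 0.55 in the authors' deposited table. That choice takes in peaks that missed the FDR (ULK1, ULK2, ATG7 and ATG4B) and the shared peaks of AMBRA1, ATG9A, ATG10 and NBR1. No value for all genes was computed under it. Over all called peaks, 7 genes had only higher ones, 11 only lower ones and 4 both (ATG13, RB1CC1, ATG14 and AMBRA1) in the authors' deposited table. These 4 are among the 9 autophagy genes with at least 2 called peaks, and 34.3% of all such genes were called both ways. The higher peaks of ATG13 and AMBRA1, and those of ATG9A, ATG10 and NBR1, all overlap another expressed gene. Without shared peaks, 4 genes had only higher peaks (ATG12, MAP1LC3B, OPTN and SQSTM1), 13 only lower ones and 2 both (ATG14 and RB1CC1) in the authors' deposited table. The 13 genes, and the 14 lower ones above, include WIPI1, whose lower peak carries an exon label of another gene. ATG14 and RB1CC1 are among 7 autophagy genes that kept at least 2 called peaks, and 34.7% of all 2549 such genes were called both ways. The share of all genes called in a single direction was not computed, so those counts have no reference.

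A further 4 lists of genes around the pathway were taken at their peak of lowest p. Over all genes with a tested peak, 22.6% were higher and 52.7% lower at that peak in the authors' deposited table. The lists are small, and their counts were not repeated without peaks shared with another expressed gene. Of 9 tested genes of other receptors and mitophagy, the removal of mitochondria, 7 were higher and 1 lower in the authors' deposited table, with FKBP8, an outer mitochondrial membrane receptor, at 0.46 (5' UTR, log10 FDR -38.9) and BCL2L13, another such receptor, at 1.35 (5' UTR, log10 FDR -13.6). Of 11 other core and fusion genes, 5 were higher and 5 lower in the authors' deposited table, with NRBF2, a subunit of the ATG14 complex, at -1.02 (3' UTR, log10 FDR -211) and EPG5, a tether for fusion with the lysosome, at -1.20 (3' UTR, log10 FDR -16.2). Of 8 genes of mTORC1 and AMPK signalling, which restrain and promote autophagy, 4 were higher and 4 lower in the authors' deposited table, with RPTOR, the scaffold of mTORC1, at 3.23 (exon, log10 FDR -77.8) and TSC1, an inhibitor of mTORC1, at -0.88 (3' UTR, log10 FDR -77.1). Of 5 lysosome genes, 2 were higher and 2 lower in the authors' deposited table, with NPC1, a cholesterol exporter, at 2.14 (exon, log10 FDR -3.08) and CTSB, a lysosomal protease, at -0.23 (3' UTR, log10 FDR -17.3). Medians from the authors' deposited table, as log2 fold changes, were 0.46 for the receptors and mitophagy, 0.26 for core and fusion, 0.04 for signalling and -0.23 for the lysosome, against -0.50 for all genes. Beside the 79.7% of all expressed genes with a listed peak, 11 of 12 expressed genes of receptors and mitophagy had one, as did 13 of 13 of core and fusion, 14 of 14 of signalling and 11 of 15 of the lysosome.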

How the data were processed

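Input and m6A pulldown of fragmented poly(A) RNA were sequenced in paired ends from dUTP libraries, per the labels' protocols. The tools named are ChIPseeker, HOMER, HISAT2 and fastp, per the submitters' processing notes, without roles. Peak caller, FPKM estimator, genome build and pooling of replicates: not given in the sources used here. The deposited values are FPKM per gene and input library, a fold enrichment per peak (a linear ratio) with its p-value, and, for the comparison, a log2 fold change and a p-value per peak. FDR was deposited as log10 values, read as a score. A further 6 per-sample FPKM columns, headed ctrol and CoCl2, match no sample in the labels used here and were not used, so RNA levels were not compared between treatments. Low FPKM values showed no steps of whole reads, so counts were not recovered.

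Repeated lines (16 listed, 4 tested) were removed. Peaks overlapped at 1 shared base or more of their blocks. A gene was expressed at a mean of 1 FPKM. The table's name gave the direction of the fold change (combined treatment over CoCl2): 99.5% of peaks above 2 but 43.0% of those below -2 overlapped a listed peak of the combined treatment. No statistical test was added, as the samples labelled here are of 1 treatment. Members and lists were chosen with earlier results of these data known. All 34 genes may be named, and of further lists the 2 called genes of lowest p. The overlap and selection functions were tested on simulated data. Python 3.11.15, numpy 2.4.6, pandas 2.3.3 and matplotlib 3.10.9 were used.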

Additional observations from a re-analysis of the deposited data

How the results depend on the processing

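No paired analysis was possible because no result comes from a test between groups of libraries. Leaving out each input library in turn kept 32 expressed genes and 27 with a listed peak, and the median level lay between 7.85 and 7.94 FPKM. Over expressed genes alone the median level was 8.26 FPKM. The spread between libraries (median SD on a log2 scale) was 0.0448 with a pseudocount of 1 and 0.0581 with 0.1. At a 2-fold limit 14 peaks of the authors' deposited table changed, 8 higher, with shared peaks of AMBRA1 and SQSTM1 among them, and 6 lower. Without peaks shared with another expressed gene, an alternative chosen after seeing the data, 10 were higher, against 18, and at the peak of lowest p AMBRA1 gave -0.79 in place of 1.03 and NBR1 -0.14 in place of 0.87 in the authors' deposited table. The median log2 fold change of the authors' deposited table, -0.41, was 0.55 with each gene's peak of highest absolute change, -0.0817 with the mean of its peaks and -0.47 over expressed genes. With those choices of peak RB1CC1 changed sign, as did AMBRA1 and ATG4B: RB1CC1 gave 1.46 (greatest change) and 0.42 (mean) in place of -0.52, AMBRA1 -0.15 (mean) in place of 1.03 and ATG4B 1.15 (greatest change) in place of -0.45 in the authors' deposited table. The median of each gene's highest fold enrichment, 5.31, was 3.66 with the mean of its peaks and 5.29 at 5 FPKM or more. The cause of these shifts was not tested. Peaks without replicate values and libraries of unknown depth limit how far small changes can be read.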
